A study of Mus musculus with 8 samples.

Results

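Ribosomal protein pseudogenes were followed in mouse kidney after bisphenol A (BPA), a plastics monomer with weak activity at estrogen receptors, or after vehicle. The pseudogenes were chosen by symbol, as those named for a large-subunit (Rpl), small-subunit (Rps) or laminin-receptor (Rpsa) ribosomal protein gene followed by -ps, together with Gm8430, a copy of Rps27a. A mean level of at least 0.5 FPKM over the 8 libraries was also required. FPKM is the number of sequenced fragments scaled by gene length and by library size. Of 299 such names, 80 reached that level and are described here. Another 78 had reads but stayed below it, and 141 had 0 reads in every library. The mean level chose the members, and Gm8430 was taken in because of its difference between BPA and vehicle, so these values are given as description. Just inside the limit were Rpl30-ps1 at 0.522, Rpl29-ps2 at 0.530 and Rpl31-ps11 at 0.531 FPKM, and just outside it Rpl10-ps6 at 0.494, Rpl7a-ps3 at 0.487 and Rpl36-ps3 at 0.443 FPKM.

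The kidneys came from ICR mice, an outbred stock, and each group had 4 libraries of polyadenylated RNA, replicates 1 to 4 of BPA and of vehicle. The labels give no other genotype or agent, and neither dose nor route nor duration nor age is stated in the sources used here. Whether each library is a separate animal is not labelled, and the p-values therefore reflect the spread among these 8 samples, which may be technical.

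A ribosomal protein pseudogene of this kind is a processed pseudogene, an intronless copy of a spliced mRNA that was reverse transcribed and inserted elsewhere in the genome. The parent genes encode the proteins of the large and small ribosomal subunits, are among the most strongly transcribed genes of most tissues, and have left many such copies in mammalian genomes. A recent copy is nearly identical to its parent, so a short read from one can match the other, and a read given to a pseudogene need not have been transcribed from it. How the authors placed reads with several matches was not stated.

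Recovered whole reads came to 15944081 to 17351540 per library. The kidney markers Lrp2, Slc34a1, Umod, Slc12a1, Slc12a3, Aqp2 and Nphs1 summed to 1501 to 2060.2 FPKM in the 8 libraries. Skeletal muscle markers summed to 224 FPKM in vehicle replicate 4 and to at most 1.17 FPKM elsewhere, and adipocyte markers to 232 FPKM in that library, to 68.3 FPKM in vehicle replicate 2 and to 0 to 25.6 FPKM in the others. Erythroid markers summed to 233 to 592 FPKM in vehicle and 365 to 926 FPKM in BPA, and leukocyte markers to 46.4 to 167 and 55.0 to 106 FPKM. BPA replicate 4 stood apart, with 17174 genes above 0 against 19090 to 20845 in the others. Of its reads 14.2% were on mitochondrially encoded genes; in BPA replicates 1 to 3 that share was 9.66 to 9.85%, and in vehicle 7.02 to 8.33%. The part of these library differences in the values below was not tested, except where a value without a library is given. In whole tissue, fewer cells of a type and less RNA per cell cannot be told apart.

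The 80 pseudogenes were close copies with mostly open reading frames. In the deposited annotation 71 were processed pseudogenes, 5 transcribed processed pseudogenes and 4 protein-coding genes (Rpl27-ps3, Rpl10-ps3, Rpl9-ps6 and Rps12-ps3). Copies of large-subunit genes numbered 46 and those of small-subunit genes 34, from 41 parents. Rpl17, a large-subunit protein near the exit of the nascent chain, had 5 copies, and 24 parents had several. The members lay on 20 chromosomes, 8 of them on the X. All but 4 were single exons. A protein-coding gene contained 26 of them, 8 with a host on the same strand and 19 with a host on the opposite strand (Rps12-ps9 had both). Rps12-ps4, opposite to the podocyte gene Nphs1, was the 1 member that overlapped an exon of its host.

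Median identity to the parent transcript was 99.3% over the 79 members that aligned to it (GENCODE M21 transcripts of GRCm38, blastn). No base differed over the alignment in 13 members, and 11 were under 98%. The lowest values belonged to Rps19-ps3 at 95.4%, Rpl26-ps6 at 90.1% and Rpl36a-ps3 at 87.5%, the last of which matched Rpl36al, a retained copy that encodes the same kind of large-subunit protein, better than Rpl36a. Rps7-ps2 did not align to Rps7, and its closest protein-coding transcript was Odc1, the first enzyme of polyamine synthesis, at 94.8%. The reading frame of the parent was open to its full length in 57 of 80 members. Of these 57, 31 encoded the parent protein without a change, and in 18 of the 31 the bases differed but the encoded protein did not.

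Level and likeness to the parent went together, as a description of names that were sorted by level. Median identity was 99.3% in the members, 97.1% in the 77 aligned names with fewer reads and 91.4% in the 138 aligned names with no read. A full-length frame was found in 71.3% of members, 43.6% of names with fewer reads and 24.1% of names with none. Within the members, mean level followed identity with a Spearman rho of 0.45 (n = 79) and the parent's level with a rho of 0.07 (n = 80); the points share libraries and in many cases a parent. Of all stretches of 100 bases in a member, the median share found unaltered in another annotated gene was 68.9%, and 18 members had every such stretch elsewhere. Of the 13 members with no differing base, 12 matched the parent over their whole length and carried 16036 reads, at 0.565 to 76.3 FPKM, although nothing in their sequence separates those reads from the parent's; Rpl10-ps3 matched over 96.4% of its length.

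The bases by which the pseudogenes that matter most below can be told from their parents are few, and they are shown here so that the reads behind the values can be judged. Each stretch is coding sequence, 5′ to 3′ on the strand of the gene, from GENCODE M21 transcripts (GRCm38), and capitals mark positions at which the sequences shown together differ. Positions in substitutions count from 1 at the first base of the parent's start codon, with the parent's base first. Gm8430 (ENSMUSG00000055093) and Rps27a-ps2 are copies of Rps27a, which encodes ubiquitin fused to a small-subunit protein. Over their aligned length each differs from it by 1 base: A71G in Gm8430 and A375G in Rps27a-ps2. The stretches are chr6:122456944-122457004 and chr6:122457248-122457308 (plus strand) in Gm8430, and chr9:83409700-83409760 and chr9:83410004-83410064 (plus strand) in Rps27a-ps2. Around the first base they read as follows.
Rps27a: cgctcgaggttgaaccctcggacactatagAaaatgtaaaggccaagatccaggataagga
Gm8430: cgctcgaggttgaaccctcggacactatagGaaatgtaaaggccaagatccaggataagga
Rps27a-ps2: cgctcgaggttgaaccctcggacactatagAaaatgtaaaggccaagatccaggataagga
Around the second they read as follows.
Rps27a: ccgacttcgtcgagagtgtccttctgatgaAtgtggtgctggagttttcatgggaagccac
Gm8430: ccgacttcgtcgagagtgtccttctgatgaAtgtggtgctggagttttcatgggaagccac
Rps27a-ps2: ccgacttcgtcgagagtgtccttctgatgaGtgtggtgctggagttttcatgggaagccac

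Rpsa encodes the small-subunit protein also known as the laminin receptor. Its copies Rpsa-ps10 and Rpsa-ps2 share T210C and C219T, so that in the stretch below (chr3:150073299-150073358 and chr10:128777008-128777067, minus strand) they differ from Rpsa but not from each other.
Rpsa: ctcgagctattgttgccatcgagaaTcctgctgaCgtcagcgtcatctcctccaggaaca
Rpsa-ps10: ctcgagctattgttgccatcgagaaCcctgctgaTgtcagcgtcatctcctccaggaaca
Rpsa-ps2: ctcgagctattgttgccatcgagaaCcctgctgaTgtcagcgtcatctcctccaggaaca
Rps24-ps3 (chr X, plus strand) differs from Rps24, a small-subunit gene mutated in some patients with Diamond-Blackfan anemia, at C207T, G273C, G360T and C380T. The first pair lies in chrX:79195246-79195326.
Rps24: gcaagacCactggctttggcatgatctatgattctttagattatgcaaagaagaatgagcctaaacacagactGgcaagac
Rps24-ps3: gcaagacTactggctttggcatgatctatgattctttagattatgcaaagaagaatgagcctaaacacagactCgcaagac
Rps26-ps1 lies within the ubiquitin ligase gene Wwp2 on the opposite strand and differs from the coding sequence of Rps26, a small-subunit gene, at C30T and G270A. The stretches are chr8:107439513-107439553 and chr8:107439268-107439318, minus strand.
Rps26, first stretch: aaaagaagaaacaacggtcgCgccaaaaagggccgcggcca
Rps26-ps1, first stretch: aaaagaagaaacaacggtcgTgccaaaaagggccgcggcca
Rps26, second stretch: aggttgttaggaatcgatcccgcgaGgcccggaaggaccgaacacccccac
Rps26-ps1, second stretch: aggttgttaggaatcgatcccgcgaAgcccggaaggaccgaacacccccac

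For several ribosomal proteins most reads lay on the pseudogene and not on the gene. Members took 128732 reads over the 8 libraries and their parents 641962. Reads per member ran from 25 to 27609 with a median of 250.5; 23 members had under 100 reads and 23 had at least 1000. Rps2-ps13, Rpl17-ps10, Rpl34-ps1 and Rpl3-ps1 held 49.3% of all member reads. The median ratio of a member's reads to its parent's was 0.0193, but it ran from 0.00146 to 57.0, and 7 members had more reads than their parent. Mean FPKM was higher in a member than in the parent for 11 of 41 parents, and members together held more reads than the parent for 6 (Rpl17, Rpl21, Rpl29, Rpl34, Rps10 and Rps2). Gene length in the table covers all exons of a parent and is longer than its mRNA, which lowers the parent's FPKM, so reads are given as well.

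**Figure D1:**
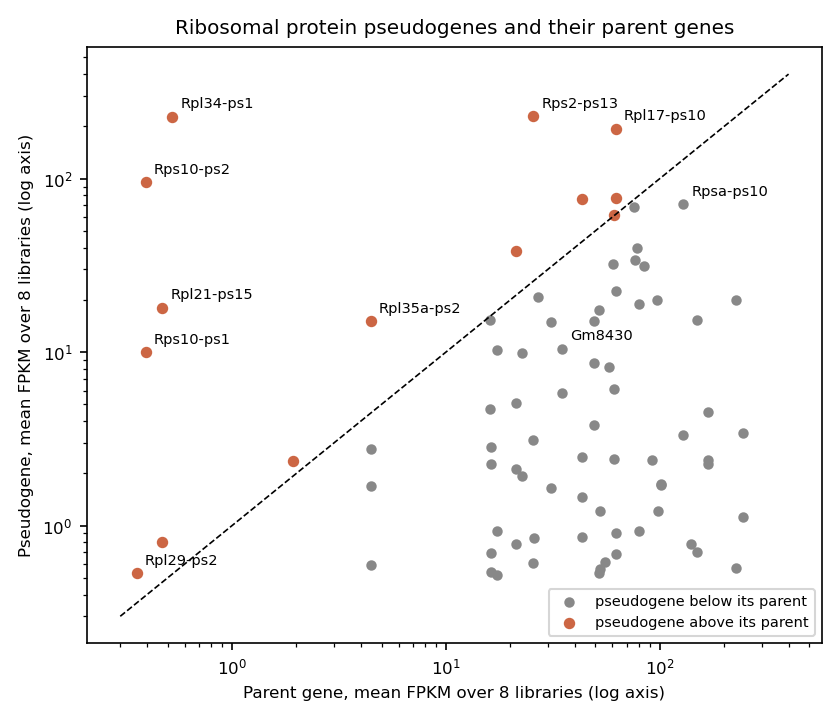
Mean FPKM of each of the 80 pseudogenes (vertical axis) against that of its parent gene (horizontal axis), both over 8 libraries and on log axes; the dashed line marks equal levels and points above it are coloured. Rpl34-ps1, Rps10-ps2 and Rpl21-ps15 lie far above the line, over parents at 0.526, 0.395 and 0.471 FPKM.

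Rpl34, a large-subunit gene, and its copy Rpl34-ps1 are the clearest case. Rpl34-ps1 was at 244, 200.7, 260 and 254 FPKM in vehicle and at 251, 243, 198 and 164 FPKM in BPA. Rpl34 was at 0.888, 0.614, 0.440 and 1.02 FPKM and at 0.371, 0.314, 0.349 and 0.206 FPKM. The copy therefore held 97.7 ± 0.732% of the pair's reads under vehicle and 98.9 ± 0.168% under BPA (SD, n = 4), 10938 reads against 192 in all. Within the coding sequence the copy differs from the gene by T132C and C318G, which leave the protein as it is. Of its stretches of 100 bases, 98.4% also lie in another annotated gene, but 46.3% lie in Rpl34. The stretches shown are chr6:71124721-71124761 and chr6:71124907-71124947, plus strand.
Rpl34, first stretch: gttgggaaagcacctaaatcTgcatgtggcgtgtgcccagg
Rpl34-ps1, first stretch: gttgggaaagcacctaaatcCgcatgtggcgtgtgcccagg
Rpl34, second stretch: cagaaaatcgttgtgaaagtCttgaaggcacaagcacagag
Rpl34-ps1, second stretch: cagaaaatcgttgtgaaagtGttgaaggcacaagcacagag

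Rps10, a small-subunit gene, showed the same picture. Rps10-ps2 was at 101.1, 101.4, 115 and 117 FPKM in vehicle and at 89.9, 105, 83.5 and 50.6 FPKM in BPA, while Rps10 itself was at 0.364 to 1.05 FPKM in vehicle and 0 to 0.410 FPKM in BPA. The pseudogene held 97.5 ± 1.10% of the pair's reads in vehicle and 99.1 ± 0.751% in BPA. A second copy, Rps10-ps1, had 676 reads, also more than the 126 of the gene. Over its last coding part Rps10-ps2 (chr16:20822161-20822255, minus strand) differs from Rps10 at 5 bases, T393C, T408C, C437G, A438G and G473A.
Rps10: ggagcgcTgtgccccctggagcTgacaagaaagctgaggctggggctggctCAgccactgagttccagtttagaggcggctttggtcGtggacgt
Rps10-ps2: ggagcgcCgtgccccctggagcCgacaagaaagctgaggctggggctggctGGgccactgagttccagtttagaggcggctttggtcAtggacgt

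Rpl21-ps15 (18 FPKM, 1183 reads) stood over the large-subunit gene Rpl21 (0.471 FPKM, 219 reads), and Rpl17-ps10 (194 FPKM, 14754 reads) over Rpl17 (62.1 FPKM, 6627 reads). Rpl29, Rpl21 and Rps10 were themselves below 0.5 FPKM, so 38 of the 41 parents could be tested. The 96 reads of Rpl29-ps2 exceed the 54 of the large-subunit gene Rpl29, but Gm13841, another pseudogene whose closest coding transcript is Rpl29, held 3702.

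In Rps2 the division of reads changed from library to library. Rps2 encodes a small-subunit protein of the decoding side of the ribosome, and Rps2-ps13 on the X chromosome differs from its transcript at 7 bases, none of which alters the protein. Rps2-ps13 had 4900, 3932, 4676 and 2496 reads in vehicle and 4112, 3895, 1878 and 1720 in BPA. Rps2 had 23, 8, 10 and 2662 reads in vehicle and 6, 3, 2047 and 1506 in BPA. In vehicle replicate 4 and BPA replicates 3 and 4 the pseudogene thus held 48.4, 47.8 and 53.3% of the pair's reads, and in the other 5 libraries 99.5 to 99.9%. The sum of the pair was steadier, 3940 to 5158 reads in vehicle and 3226 to 4118 in BPA. Both sets of libraries contain both groups, and the cause of the division was not tested. The bases T60A and A84G (chrX:52898637-52898681, plus strand) are among those that tell the copies apart.
Rps2: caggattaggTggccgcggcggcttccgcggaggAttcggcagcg
Rps2-ps13: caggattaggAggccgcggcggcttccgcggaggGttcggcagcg

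Several pseudogenes were present in some libraries and nearly absent from others of the same group. The standard deviation of log2(FPKM + 1) within groups exceeded 1 in 6 of 80 members (7.5%) and in 1.76% of the 13376 genes with a mean of at least 0.5 FPKM. Such spread was not particular to the members. It was found in 4 of the 38 tested parents (10.5%) and 32 of 682 other processed pseudogenes (4.69%). Among 45 other ribosomal protein genes 1 had it (2.22%). Rps26-ps1 was at 39.6, 2.74, 4.03 and 59.5 FPKM in vehicle and at 58.7, 67.9, 1.91 and 81.9 FPKM in BPA. It was high in 5 libraries and low in 3, in both groups, with the 10th largest spread of all tested genes (SD 2.18). Its parent Rps26 did not divide in this way, at 79.8 to 100.6 FPKM in vehicle and 44.0 to 82.7 FPKM in BPA. Within BPA, Rps26 was highest in replicate 3, where the copy was lowest, and lowest in replicate 4, where the copy was highest. Vehicle did not repeat this order. There both were lowest in replicate 2, and Rps26 was at 97.5 FPKM in replicate 4, where the copy was highest. Rps26 was highest in vehicle replicate 3, where the copy was at 4.03 FPKM.

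Rps24-ps3 was at 27.4, 1.39, 32.3 and 2.58 FPKM in vehicle and at 46.4, 3.39, 50.7 and 2.71 FPKM in BPA. It was high in replicates 1 and 3 of both groups and low in replicates 2 and 4 of both, and ranked 13th in spread (SD 2.04). It took 0.387 to 13.5% of the reads of the pair with Rps24, which was at 20.4 to 35.9 FPKM throughout. Rpl17-ps5 reached 83.8 FPKM in vehicle replicate 3 and 66.1 FPKM in BPA replicate 3, and lay at 2.83 to 6.85 FPKM in the other 6 libraries. Rpl15-ps2, a copy of the large-subunit gene Rpl15, was at 7.21 FPKM in vehicle replicate 2 and at 0.197 to 0.623 FPKM elsewhere. Rps25-ps1 ranged from 1.44 to 15.5 FPKM in vehicle and from 2.40 to 10.8 FPKM in BPA. The high libraries differ from member to member and follow neither the group nor 1 library. The same replicate numbers were high in both groups for Rps24-ps3 and Rpl17-ps5. Rps26-ps1 was high in replicates 1 and 4 and low in replicate 3 of both groups. Its replicate 2 was low in vehicle and high in BPA.

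**Figure D2:**
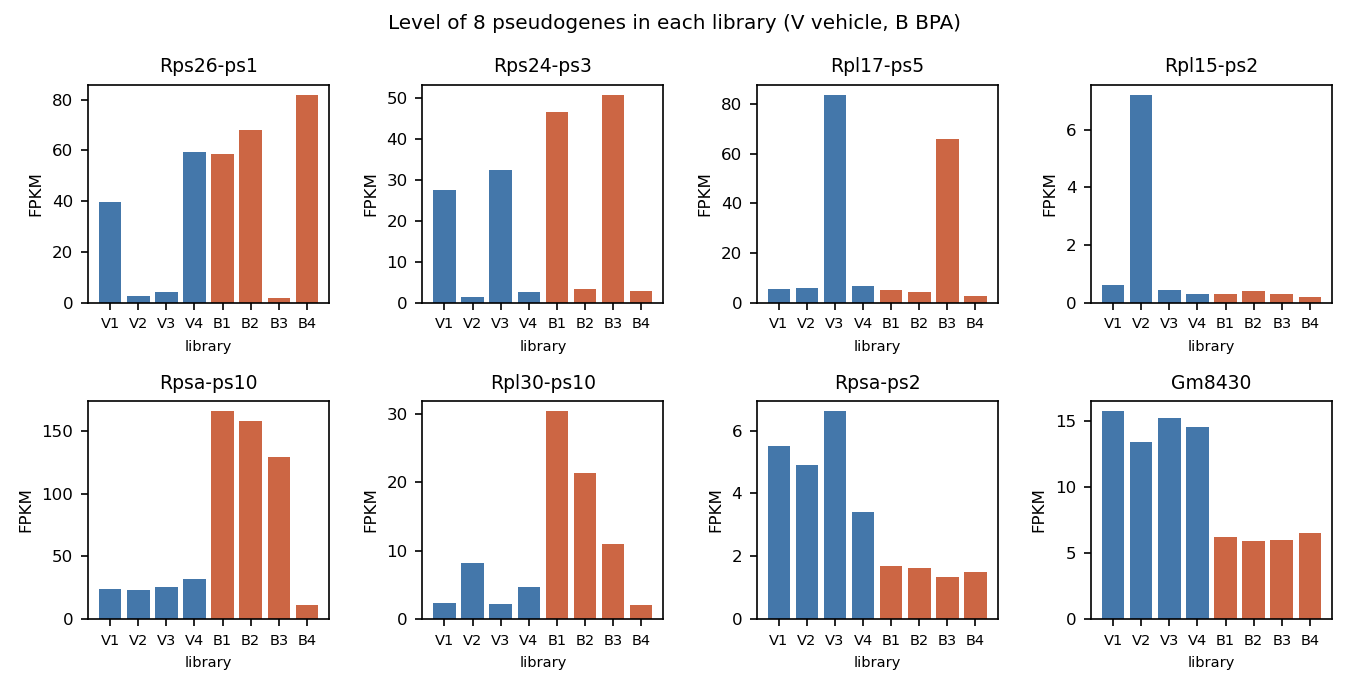
FPKM of 8 pseudogenes in each library (bars; V1 to V4 vehicle replicates, blue, B1 to B4 BPA replicates, orange). Rps26-ps1, Rps24-ps3 and Rpl17-ps5 are high in some libraries of both groups, and Rpl15-ps2 is high in V2 alone. Rpsa-ps10 and Rpl30-ps10 are high in 3 BPA libraries, and Rpsa-ps2 and Gm8430 are lower in every BPA library than in any vehicle library.

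**Figure D3:**
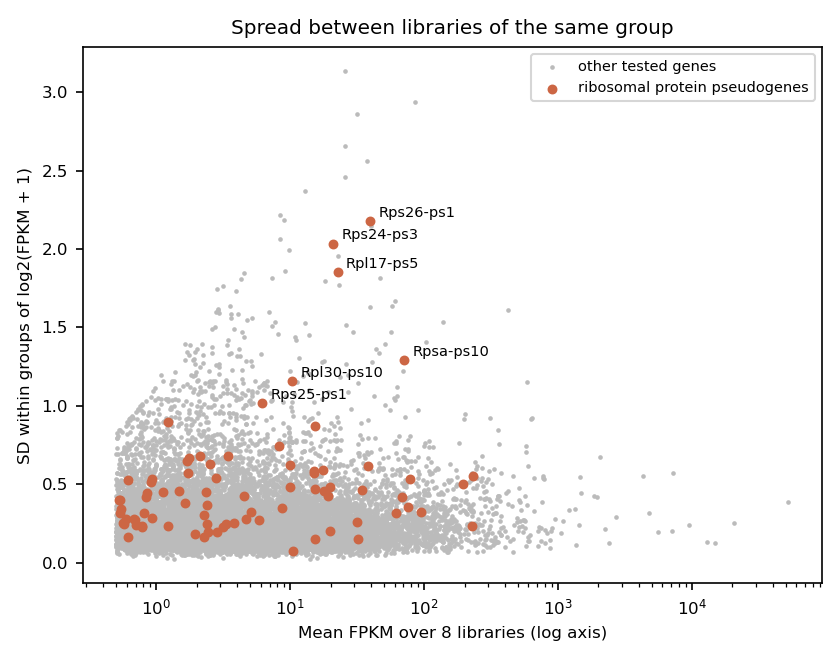
Standard deviation of log2(FPKM + 1) within groups (vertical axis) against mean FPKM over 8 libraries (horizontal, log axis) for the 13376 tested genes, with the 80 pseudogenes coloured. Rps26-ps1, Rps24-ps3 and Rpl17-ps5 rank 10th, 13th and 17th of all tested genes, and 6 pseudogenes exceed 1.

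The comparison of BPA with vehicle asked which transcripts differ after exposure. Most of the pseudogenes were lower in BPA, 63 of 80 by sign, where 52.0% of all tested genes were lower. Their median log2 difference (BPA minus vehicle) was -0.25, against -0.01 over all 13376 tested genes. Their 38 tested parents had a median of -0.31 (33 lower), the 45 other ribosomal protein genes -0.33 (44 lower) and the 682 other processed pseudogenes -0.11 (416 lower). The order of pseudogenes and parents depends on the scale: with a pseudocount of 0.1 the medians were -0.51 and -0.32, and by limma-voom on recovered reads -0.57 and -0.36. Copies of small-subunit genes had a median of -0.33 (27 of 34 lower) and copies of large-subunit genes -0.22 (36 of 46 lower).

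Single members mostly did not pass the test. With limma and Benjamini-Hochberg adjustment over all tested genes 1 of 13376 genes was called at an adjusted p under 0.05 (0.00748%), and that gene was Gm8430, the member taken in for it. No other pseudogene was called. The call of Gm8430 was lost by limma-voom (adjusted p = 0.281), with a replicate block (0.196), without vehicle replicate 1 (0.0695), vehicle replicate 3 (0.0707), BPA replicate 2 (0.0619) or both replicates 4 (0.0520), and within replicates 1 and 2 (0.144) or 3 and 4 (0.423), while its log2 difference stayed at -1.10 to -1.28. An unadjusted p under 0.05 was reached by 23 lower members, Gm8430 among them, and by 0 higher ones, where 6.83% and 4.18% of all tested genes were. All vehicle libraries were above all BPA libraries in 13 members and all BPA libraries above all vehicle libraries in 0 (Gm8430 is 1 of the 13), where the shares of all tested genes were 4.66% and 3.23%.

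BPA replicates 3 and 4 carried much of this. BPA replicate 4 held the lowest value of 50 members (62.5%) and of 28.0% of all tested genes. It did so for 81.6% of the tested parents and 82.2% of the other ribosomal protein genes. BPA replicate 3 held the lowest value of another 13 members, and of 1193 of the 13376 tested genes. Members at 0 reads numbered 8 in BPA replicate 4, 2 in BPA replicate 3 and 1 in BPA replicate 1, with 0 in each vehicle library. Without BPA replicate 4, 58 members were lower (median -0.19), and an unadjusted p under 0.05 was reached by 19 lower and 2 higher members, where 6.12% of all tested genes were lower and 4.07% higher at that p. The groups then did not overlap in 14 lower members, where 6.10% of all tested genes were so placed, and in 3 higher ones (Rpsa-ps10, Rpl30-ps10 and Rpl36a-ps3), where 4.90% were. Without BPA replicates 3 and 4, 50 were lower (median -0.11), and the median of the parents was 0.0033. Replicates 1 and 2 also differed from 3 and 4 in both groups in Arntl, a core clock gene (2.22 to 4.27 against 0.106 to 0.550 FPKM). Within replicates 1 and 2, 43 members were lower (median -0.05, parents 0.12), and within replicates 3 and 4, 72 (median -0.55, parents -0.69).

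The summed reads were also lowest in BPA replicates 3 and 4. Pseudogenes took 0.108, 0.0910, 0.108 and 0.106% of reads in vehicle and 0.112, 0.113, 0.0745 and 0.0545% in BPA. BPA replicates 1 and 2 were above every vehicle library and BPA replicates 3 and 4 below every one. The first part rests on Rpsa-ps10, described below: without it the shares were 0.106, 0.0889, 0.106 and 0.103% in vehicle and 0.0966, 0.0989, 0.0637 and 0.0536% in BPA, so that BPA replicates 1 and 2 lay inside the vehicle range. Parents took 0.518 ± 0.0575% in vehicle and 0.438 ± 0.0981% in BPA (SD, n = 4), and were likewise lowest in BPA replicates 3 and 4. As a share of the reads on pseudogenes and parents together the pseudogenes stood at 16.7 ± 1.2% and 16.5 ± 1.75%. With Rpsa-ps10 included, this share thus differed by less than the spread between replicates. Rpsa-ps10 had 2545, 2358 and 1860 reads in BPA replicates 1 to 3 and 347 to 492 in the vehicle libraries. The share was not computed without Rpsa-ps10, so it does not show that the other pseudogenes kept their balance with the parents.

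**Figure D4:**
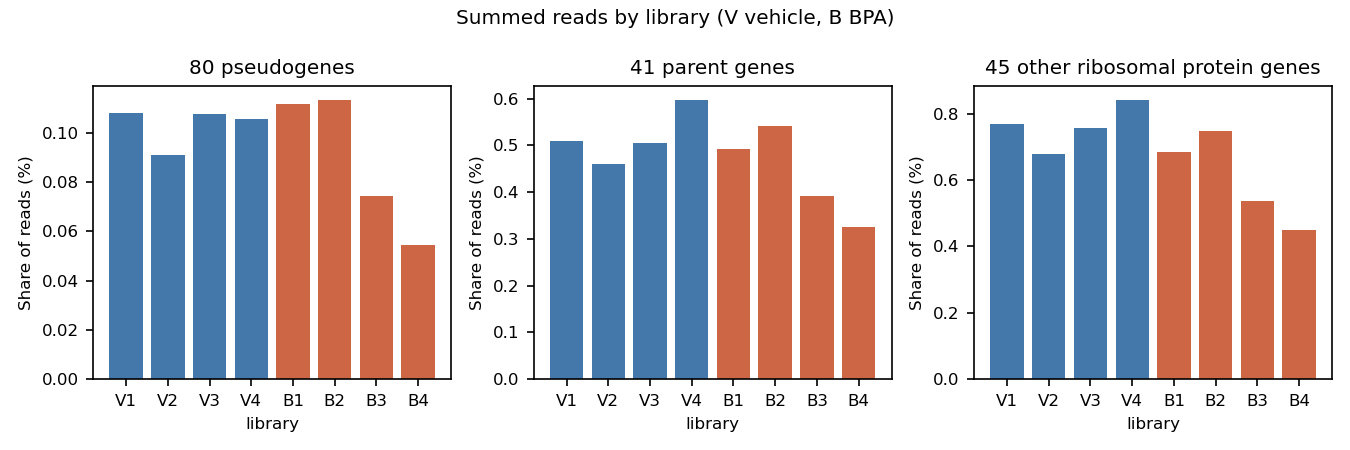
Share of all reads (%) on the 80 pseudogenes, their 41 parents and 45 other ribosomal protein genes in each library (V1 to V4 vehicle, B1 to B4 BPA). All 3 sums are lowest in B3 and B4, while B1 and B2 are not below the vehicle range.

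The order of the pseudogenes' differences bore little relation to that of their parents' differences. Over the 75 members with a tested parent, the Spearman rho of the 2 log2 differences was 0.14 (both come from the same 8 libraries). The sign was the same in 55 of the 75, with most members and most parents lower. The 23 members with over 90% of their stretches of 100 bases in another gene had a median of -0.63, and the 57 others -0.20. Across all tested genes the log2 difference went with GC content (rho -0.40 over 13364 genes), while in the members the rho was -0.15. Their median GC content, 50.2%, was close to the 49.7% of all tested genes.

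**Figure D5:**
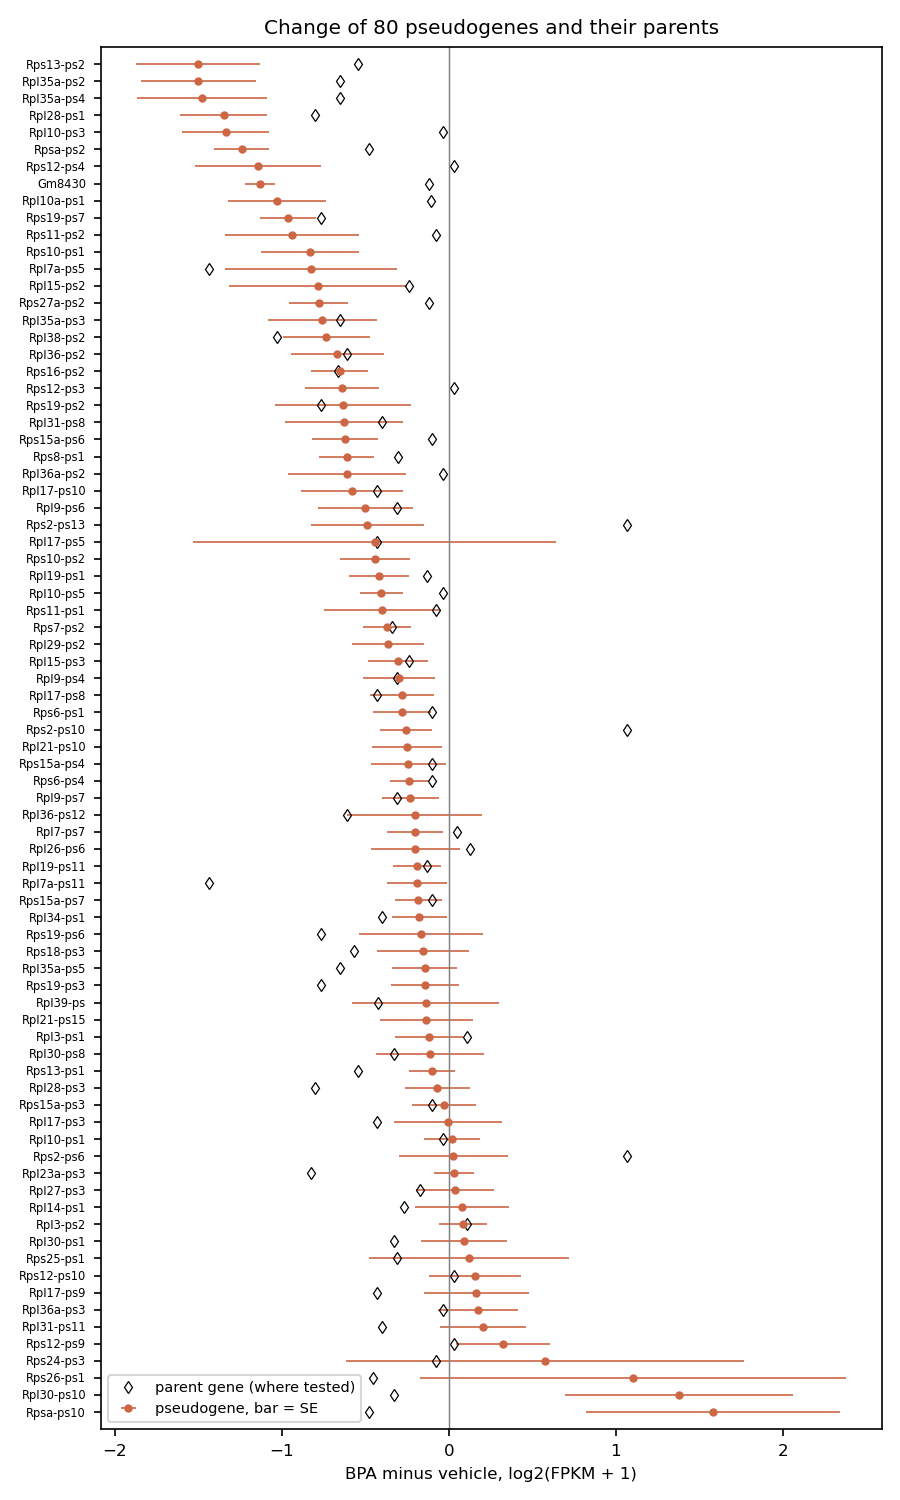
Difference between BPA and vehicle on the log2(FPKM + 1) scale for each of the 80 pseudogenes (points, bars SE), sorted, and for its parent gene where tested (diamonds). Points lie left of 0 for 63 members, and the members with the lowest and highest values lie far from their parents.

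Among the copies of small-subunit genes, Gm8430 stood at 15.8, 13.4, 15.2 and 14.5 FPKM in vehicle and at 6.24, 5.91, 6.0 and 6.55 FPKM in BPA. The 4 BPA libraries lie close together, BPA replicate 4 included, which was the lowest library of most other members and the highest BPA library of this one. Rps27a was at 33.8, 30.2, 39.0 and 40.7 FPKM in vehicle and at 38.1, 42.8, 29.6 and 24.0 FPKM in BPA. Gm8430 held 9.0 ± 0.984% of the pair's reads under vehicle and 4.43 ± 1.28% under BPA (SD, n = 4), with 7.87 to 10.03% against 3.19 to 6.13%. The sister copy Rps27a-ps2 was at 8.89, 5.15, 8.86 and 7.645 FPKM in vehicle and at 5.06, 3.42, 3.55 and 3.89 FPKM in BPA. Its log2 difference was -0.78 (SE 0.176, limma adjusted p = 0.309); it was singled out after its values were seen.

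Rpsa-ps2 and Rpsa-ps10, which share the bases shown above, went opposite ways. Rpsa-ps2 was at 5.52, 4.90, 6.61 and 3.40 FPKM in vehicle and at 1.70, 1.62, 1.33 and 1.51 FPKM in BPA. All 4 BPA libraries were below every vehicle library (log2 difference -1.24, SE 0.164, limma adjusted p = 0.171). It passed without vehicle replicate 4, the library with muscle and fat transcripts (log2 difference -1.39, adjusted p = 0.0312), and it too was singled out after its values were seen. Rpsa-ps10 was at 24.2, 22.9, 25.3 and 32.0 FPKM in vehicle and at 166, 158, 129 and 11.3 FPKM in BPA. BPA replicates 1 to 3 were above every vehicle library and BPA replicate 4 below every one. The difference over all libraries did not pass (1.58, SE 0.761, adjusted p = 0.476), and without BPA replicate 4 it was 2.49 (adjusted p = 0.00252). Rpsa itself was lower by sign (log2 difference -0.48, adjusted p = 0.365), and the share of Rpsa-ps10 in the reads of the pair was 4.39 to 4.94% in vehicle, 31.1, 27.2 and 28.3% in BPA replicates 1 to 3 and 2.61% in BPA replicate 4.

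Rps13-ps2, identical to the transcript of the small-subunit gene Rps13, was at 13.9, 14.2, 17.97 and 12.6 FPKM in vehicle and at 7.63, 8.50, 1.90 and 2.81 FPKM in BPA. The groups did not overlap, and the log2 difference of -1.50 did not pass (SE 0.371, adjusted p = 0.335). Rps16-ps2, also identical to its small-subunit parent, was at 28.5 to 43.6 FPKM in vehicle and 18.8 to 27.0 FPKM in BPA (log2 difference -0.65, adjusted p = 0.355). The parent Rps16 differed by -0.67 (adjusted p = 0.387), much like its copy, and Rps13 by -0.54 (adjusted p = 0.460). Rps12-ps3, a coding-annotated copy of Rps12, held 17.5 to 37.3% of the reads of the pair and was at 77.0 to 99.4 FPKM in vehicle and 37.4 to 78.4 FPKM in BPA (log2 difference -0.64, adjusted p = 0.387). For the most abundant member, Rps2-ps13, the log2 difference was -0.49 (SE 0.339, adjusted p = 0.578), and for Rps10-ps2 -0.44 (SE 0.210, adjusted p = 0.473). The uneven members Rps26-ps1 (1.11, SE 1.28, adjusted p = 0.738) and Rps24-ps3 (0.58, SE 1.19, adjusted p = 0.860) had among the highest positive differences, inside their spread, and Rps12-ps9 was at 0.33 (adjusted p = 0.651).

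Among the copies of large-subunit genes, 2 of the 4 copies of Rpl35a had some of the lowest values, while Rpl35a-ps3 differed by -0.76 (adjusted p = 0.446) and Rpl35a-ps5 by -0.14 (adjusted p = 0.777). Rpl35a-ps2 was at 26.9, 15.6, 28.5 and 18.3 FPKM in vehicle and at 15.1, 6.76, 5.16 and 4.36 FPKM in BPA (log2 difference -1.50, SE 0.344, adjusted p = 0.315), with no overlap between the groups. Rpl35a-ps4 was at 3.28, 1.01, 4.85 and 2.59 FPKM in vehicle and at 1.56, 0.178, 0 and 0 FPKM in BPA (log2 difference -1.48, adjusted p = 0.355), and here the groups overlapped. Both copies, like Rpl35a-ps3, carry G156A, and none of their stretches of 100 bases belongs to 1 gene alone. The stretches below are chr1:181242140-181242190, chr17:29137124-29137174 and chr2:108875078-108875128, minus strand, in that order of copies.
Rpl35a: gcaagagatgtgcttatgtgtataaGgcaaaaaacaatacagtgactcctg
Rpl35a-ps2: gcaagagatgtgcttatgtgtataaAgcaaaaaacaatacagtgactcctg
Rpl35a-ps3: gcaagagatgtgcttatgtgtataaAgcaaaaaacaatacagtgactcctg
Rpl35a-ps4: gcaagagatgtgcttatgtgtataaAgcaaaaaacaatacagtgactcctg
Rpl35a itself was at 2.51 to 13.3 FPKM in vehicle and 1.66 to 3.50 FPKM in BPA.

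Rpl28-ps1, identical to the transcript of the large-subunit gene Rpl28, was at 35.6, 20.3, 29.2 and 25.3 FPKM in vehicle and at 11.4, 12.9, 12.02 and 5.55 FPKM in BPA (log2 difference -1.35, SE 0.260, adjusted p = 0.271). Rpl10-ps3, annotated as coding and without a differing base over the 96.4% of its length that aligned to Rpl10, which encodes a late-joining large-subunit protein, was at 9.24, 4.81, 7.74 and 5.62 FPKM and at 2.10, 3.78, 1.44 and 1.34 FPKM (log2 difference -1.34, SE 0.261, adjusted p = 0.271). In both the groups did not overlap. Of the parents, Rpl28 differed by -0.80 (adjusted p = 0.477) and Rpl10 by -0.03 (adjusted p = 0.943). Rpl10-ps3 held 1.5 ± 0.447% of the reads of the pair in vehicle and 0.469 ± 0.166% in BPA. Rpl10a-ps1, identical to Rpl10a, was at 24.3 to 30.8 FPKM in vehicle, and at 25.5 FPKM in BPA replicate 1 and 9.35 to 9.77 FPKM in BPA replicates 2 to 4 (log2 difference -1.03, adjusted p = 0.365). Without BPA replicate 1 it passed, at -1.36 (adjusted p = 0.0235). Rpl38-ps2, identical to Rpl38, was at 61.5 to 105 FPKM in vehicle and 33.8 to 69.2 FPKM in BPA (log2 difference -0.74, adjusted p = 0.393). Rpl38 itself differed by -1.03 (adjusted p = 0.374).

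The high-level copies of Rpl17 and Rpl34 differed less. Rpl17-ps10 was at 220, 201.1, 199 and 287 FPKM in vehicle and 213, 221, 129 and 82.5 FPKM in BPA, so that only BPA replicates 3 and 4 lay below the vehicle libraries (log2 difference -0.58, SE 0.308, adjusted p = 0.495). Rpl17-ps3 was at 45.9 to 101.3 FPKM in vehicle and 41.8 to 103 FPKM in BPA, with replicate 3 the lowest in both groups, and Rpl17-ps5, high in replicate 3 of both, differed by -0.44 (SE 1.09, adjusted p = 0.882). For Rpl34-ps1 the log2 difference was -0.18 (SE 0.167, adjusted p = 0.680). Of the large-subunit copies with positive values, Rpl30-ps10 on the X chromosome was at 2.36, 8.22, 2.23 and 4.65 FPKM in vehicle and at 30.4, 21.3, 10.97 and 2.09 FPKM in BPA. BPA replicates 1 to 3 were above every vehicle library and BPA replicate 4 below every one, as in Rpsa-ps10, and the difference did not pass (1.38, SE 0.682, adjusted p = 0.478). Its share of the reads of the pair with Rpl30 was 1.31 to 4.69% in vehicle and 5.19 to 12.5% in BPA, higher in 4 of 4 BPA libraries. In BPA replicate 4 the share rests on 12 reads of the copy against 219 of Rpl30. The copy had 15, 51, 12 and 28 reads in vehicle. Rpl30 itself was uneven, at 1128, 1405, 244 and 1250 reads in vehicle and 1281, 1250, 455 and 219 in BPA. Gm12191, another pseudogene whose closest coding transcript is Rpl30, held 2740 reads.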

How the data were processed

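Polyadenylated RNA of 8 kidney libraries was sequenced. The deposited table gives FPKM for 54532 genes with gene length and biotype, as the authors made it. DESeq2 1.20.0 and GRCm38 appear, without a role, per the submitters' processing notes; the aligner and the counter: not given in the sources used here. Columns with no BPA in their name were read as vehicle, since the labels hold just these groups.

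Multiplied by gene length, every library's FPKM came in whole steps (within 0.01 reads, 100% of values), which gave back whole reads. Genes with a mean of at least 0.5 FPKM (13376) were compared on log2(FPKM + 1), which understates the change of low genes. The test was limma 3.58.1 in R 4.3.3, with trended and robust empirical Bayes and no covariate. Benjamini-Hochberg adjustment ran over all tested genes, and genes were called under 0.05. The code was checked on simulated data of a fixed spread, which does not test the method at the spread of these libraries. Low members rest on few reads. With blastn 2.17.0 (e-value 1e-20) pseudogenes were aligned to coding transcripts of GENCODE M21; 78 of 80 members had the same coordinates there. Calculations used Python 3.11.15, pandas 2.3.3, numpy 2.4.6, scipy 1.17.1 and matplotlib 3.10.9.

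The members and lists were chosen with earlier results of these data known. Named were Gm8430; the 6 members with the highest mean; the 5 with the highest and the 5 with the lowest log2 difference; the 5 with the widest spread; those at the level limit; and those of highest and lowest identity, with their parents. Rpl15-ps2, Rps25-ps1, Rps27a-ps2, Rpsa-ps2 and others named for a count were chosen after their values were seen. Alternatives were another pseudocount (0.1), other filters, a common read total, limma-voom on recovered reads, library weights, a replicate block and libraries left out. One kidney marker of the list is not reported here and was left out of its sum. Reads and metabolites were not analysed here.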

Additional observations from a re-analysis of the deposited data

Results flagged for a closer look

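In 66 groups of 4 libraries (the named pseudogenes in each group, and the summed reads of pseudogenes and of parents), 1 library lay far from the other 3 in 9. Chance alone flags about 1 group in 20, a rate that does not apply here, since several of the named pseudogenes were chosen for their spread or after their values were seen. Rpl17-ps5 was set apart by replicate 3 in both groups, at 83.8 FPKM in vehicle (others 5.31 to 6.85) and 66.1 FPKM in BPA (others 2.83 to 5.19). Rpl10a-ps1 was set apart by vehicle replicate 3 at 30.8 FPKM (others 24.3 to 25.3) and by BPA replicate 1 at 25.5 FPKM (others 9.35 to 9.77). Rpl15-ps2 was at 7.21 FPKM in vehicle replicate 2 (others 0.282 to 0.623). Rpl29-ps2 was low in vehicle replicate 4, at 0.174 FPKM (others 0.867 to 0.977). Rpl35a-ps4 was at 1.56 FPKM in BPA replicate 1 (others 0 to 0.178). Rpl36a-ps3 was low in vehicle replicate 2, at 0.871 FPKM (others 1.61 to 1.70). Pseudogenes together took 0.0910% of reads in vehicle replicate 2 (others 0.106 to 0.108%). Their causes were not tested.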

How the results depend on the processing

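Over all tested genes, libraries of the same replicate number deviated together little (correlations of their deviations 0.14, 0.02, 0.14 and -0.03). The labels do not state a pairing, so the replicate block is given as an alternative and not in the main test. It left 0 genes and 0 pseudogenes called (1376 genes at an unadjusted p under 0.05). Limma-voom on recovered reads also called 0 genes and 0 pseudogenes (1531 at an unadjusted p under 0.05). Library weights called 8 genes and 2 pseudogenes (Gm8430 and Rpsa-ps2). With each library left out in turn, 0 to 4 genes and 0 to 2 pseudogenes were called. The median log2 difference of the pseudogenes was -0.51 with a pseudocount of 0.1 and -0.57 by limma-voom. Their ratio to the parent in reads had a median of -0.15 (46 lower, 34 higher). Without both replicates 4, 1 gene was called, Rpsa-ps10. Chosen after seeing the data were the next 3 settings. Without BPA replicates 3 and 4, 6 genes and 2 pseudogenes were called, and the parents' median turned to 0.0033. Within replicates 1 and 2, 2 genes and 1 pseudogene (Rpsa-ps10) were called, and the parents' median turned to 0.12. Within replicates 3 and 4, 0 genes and 0 pseudogenes were called, with medians of -0.55 for pseudogenes and -0.69 for parents. Signs turned, without a call, for Rpl17-ps3 (-0.23 to 0.27 with each library left out, 0.032 with library weights, 0.088 without both replicates 4, 0.32 without BPA replicates 3 and 4, 0.20 within replicates 1 and 2), Rpl17-ps5 (-1.38 to 0.46 with each library left out), Rps24-ps3 (-0.088 to 1.22 likewise), Rps26-ps1 (-0.17 within replicates 3 and 4), Rpl17-ps10 (0.043 within replicates 1 and 2), Rpl34-ps1 (0.049 without BPA replicates 3 and 4, 0.16 within replicates 1 and 2) and Rps2-ps13 (0.056 without BPA replicates 3 and 4). The causes were not tested. Identity of many copies to another gene, few reads on low copies and BPA replicate 4 limit these values.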
